A study of Homo sapiens with 18 samples.

Results

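The comparison described here set cells given a TBX3 plasmid against cells given a TBX5 plasmid, members of the TBX2 subfamily whose genes lie beside each other on chromosome 12. It used the 3 TBX3 libraries and the 3 TBX5 libraries of the 18 RNA-seq libraries of the series, and the members were the 15576 genes, of 63677 in the count table, that had over 5 counts in 10 or more of those 18. All libraries came from NCI-H1299, a human lung cancer line that the labels call lung adenocarcinoma, at passage 12 to 14, and total RNA was taken after transient transfection. TBX3 was a human gene and Tbx5 a mouse gene, both HA-tagged, both in the pCGN vector and both delivered with Lipofectamine 2000, so this pair, unlike pairs with the Flag-tagged pORF plasmids of TBX2 and TBX4, did not differ in backbone or tag. The 6 control libraries, 3 of cells given empty vector (EV) and a further 3 titled Ctl, for which no treatment is stated, gave the level from which each plasmid moved a gene. The labels do not say that replicates a, b and c were separate cultures, so the p-values measure the spread between these libraries only. In a transient transfection each library mixes cells with and without plasmid, and a difference in the share of transfected cells and a difference per transfected cell cannot be told apart.

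T-box proteins bind DNA through a conserved T-box domain, and the TBX2 subfamily acts in heart, limb and lung bud development. TBX3 is known mostly as a repressor, linked to the silencing of cell cycle inhibitors, while TBX5 is known mostly as an activator that works with cardiac partners such as GATA4 and NKX2-5. The comparison asks at which genes the 2 factors left lung cancer cells in different states when delivered in the same vector.

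The libraries held 7365221 to 11743179 counts over all 18, with 8812923, 9131857 and 10771902 in TBX3 libraries a, b and c and 7960510, 7387816 and 8016417 in TBX5 libraries a, b and c. A single gene, ENSG00000266658, took 38.5%, 47.4% and 10.7% of the counts in the TBX3 libraries and 22.5%, 53.5% and 52.7% in the TBX5 libraries, and its part in the results was not tested beyond the alternatives given at the end. Levels are therefore given in CPM after TMM normalisation, meaning counts adjusted to one library size that the bulk of the genes sets. Over the 12 libraries of TBX3, TBX5 and the controls, VIM stood at 740 to 967 CPM, AXL at 328 to 574 CPM and NRAS at 125 to 140 CPM. None of 8 listed lung epithelium markers (such as NKX2-1, SFTPB and SFTPC) and none of the 11 matched markers of blood, endothelial and fibroblast cells passed the count filter.

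The plasmids marked their own libraries. TBX3 (ENSG00000135111) stood at 17699, 25355 and 22474 CPM in the TBX3 libraries and at 13.2, 7.72 and 9.84 CPM in the TBX5 libraries, and at 1.37 to 3.32 CPM in the 6 controls. The log2 fold change between TBX3 and TBX5 libraries was 11.01 ± 0.22 (SE; edgeR quasi-likelihood test with Benjamini-Hochberg adjustment, adjusted p = 6.21e-19). The small TBX3 signal of the TBX5 libraries, from 39 to 119 counts, was itself above the controls by 2.22 on the log2 scale (edgeR, adjusted p = 2.6e-07), and TBX4, for which these cells received no plasmid, gave 8 to 18 counts in TBX5 libraries, 6 to 10 in TBX3 libraries and at most 1 in a control. The source of these few counts was not tested.

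TBX5 (ENSG00000089225) stood at 128, 230 and 242 CPM in the TBX5 libraries, from 1161 to 1302 counts, at 1 count in a single TBX3 library and at 0 in the other two and in all controls. Against the floor of 3 counts per library that was at least 570-fold higher than in the TBX3 libraries. TBX5 did not pass the count filter and was not tested. The counts are of mouse Tbx5 reads as far as they aligned to the human gene, so the levels of the 2 transgenes were not compared with each other. TBX5-AS1, which overlaps the start of TBX5, had 0 counts in all 12 libraries.

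On GRCh37, TBX5 lies at chr12:114791716-114846247 and TBX3 at chr12:115108060-115121980, both on the minus strand and 261813 bases apart. Within 1 Mb on either side of the pair the annotation holds 35 genes, of which 6 passed the filter and 1, TBX3 itself, differed between the plasmids. The other 5 tested genes did not pass. SLC8B1, a mitochondrial sodium/calcium exchanger, stood at 5.62, 4.97 and 5.81 CPM with TBX3 and 6.97, 9.11 and 8.35 CPM with TBX5, without overlap, at a log2 fold change of -0.52 ± 0.18 (SE; edgeR, adjusted p = 0.126). RBM19, a ribosome biogenesis factor, stood at 29.5 to 30.8 CPM with TBX3 and 31.2 to 34.2 CPM with TBX5, at -0.10 ± 0.09 (edgeR, adjusted p = 0.668). PLBD2, SDSL and LINC01234 gave log2 fold changes of -0.28, -0.10 and -0.13. On chromosome 12 without TBX3, 52 of 871 tested genes (5.97%) were called.

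Across all genes, 734 of 15576 (4.71%) differed between TBX3 and TBX5 at an adjusted p under 0.1, of which 429 (2.75%) were higher with TBX3 and 305 (1.96%) were higher with TBX5. For 3262 genes (20.9%) the 3 TBX3 values and the 3 TBX5 values did not overlap, and 722 of the 734 called genes were among them. Most differences were modest. The median called difference was 0.40 on the log2 scale for genes higher with TBX3 and 0.59 for genes higher with TBX5. Among differences of 1 or more on the log2 scale the balance turned, with 23 genes higher with TBX3 and 71 higher with TBX5. Of those, 14 and 12 had a mean level of at least 5 CPM, and 9 and 59 lay below it, so most large differences in favour of TBX5 were of genes at a low level. These counts depend on single libraries, falling to 232 and 154, 225 and 183, 253 and 174 or 233 and 157 genes without TBX3 a, TBX3 b, TBX5 b or TBX5 c. They also rest on the TMM scaling, since scaling by library totals, in which ENSG00000266658 weighs most, left 5 and 3 genes.

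**Figure D1:**
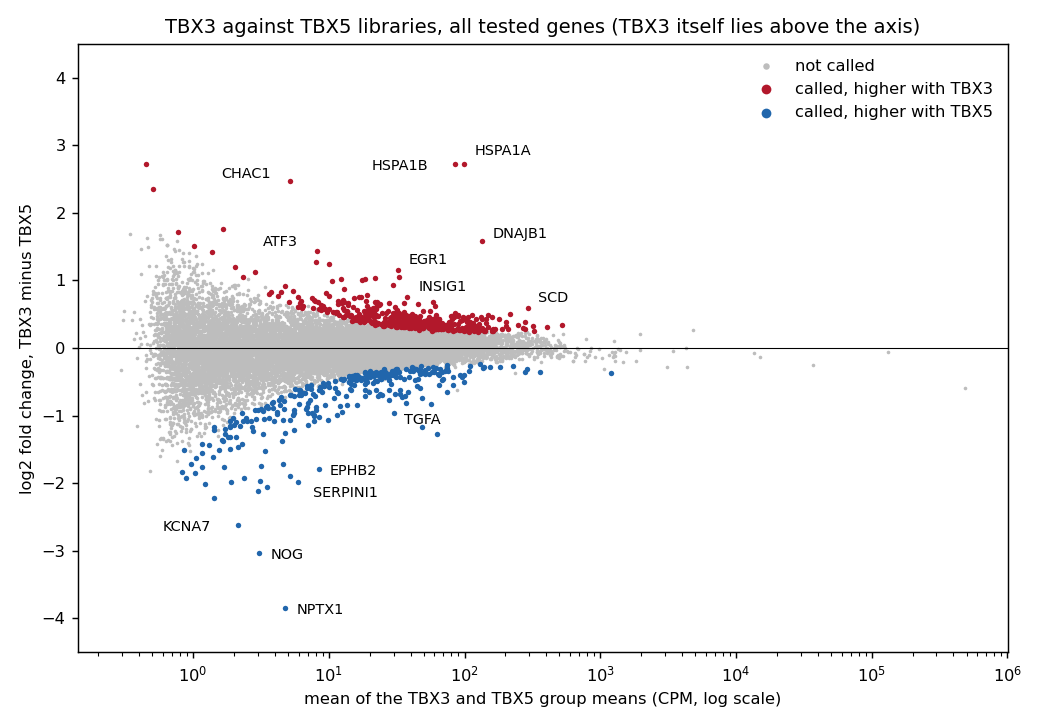
Log2 fold change of each tested gene (y axis, TBX3 minus TBX5) against its level (x axis, mean of both groups in CPM, log scale), with the 429 genes called higher with TBX3 in red and the 305 called higher with TBX5 in blue. HSPA1A, HSPA1B, DNAJB1 and CHAC1 stand above the other called genes with a mean of at least 5 CPM. At the bottom, NPTX1, NOG and KCNA7 stand lowest. TBX3 itself, at 11.01, lies off the axis.

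For most of these genes the control mean lay between the 2 plasmid means. Of the 429 genes higher with TBX3, the mean of the 6 controls lay between the 2 plasmids for 290, below both for 103 and above both for 36. Against the controls, where 2317 genes (14.9%) were called for TBX3 and 1977 (12.7%) for TBX5, 287 of the 429 had risen with TBX3 (8.47% of all genes did), 251 of them with no call for TBX5, and 120 had fallen with TBX5 (5.96% of all genes did). Both counts hold the 22 genes that rose with TBX3 and fell with TBX5, and 44 of the 429 were called against the controls with neither plasmid. Of the 305 genes higher with TBX5, the control mean lay between for 208, below both for 90 and above both for 7. In that group 220 had risen with TBX5 (6.73% of all genes did), 200 of them with no call for TBX3, and 60 had fallen with TBX3 (6.4% of all genes did), with 12 genes in both counts, and 37 of the 305 were called against the controls with neither plasmid. Both comparisons with the controls share the same 6 libraries, and their thresholds were applied separately. They called 1543 genes for TBX3 without TBX3 b, and 1247 or 1067 for TBX5 without TBX5 b or TBX5 c. The TBX3 and TBX5 libraries that chose the 429 and 305 genes also enter these comparisons. That choice favours rises with the higher plasmid and falls with the other. The shares of all genes are therefore no test of these counts. A missing call with a plasmid does not show that the gene was unchanged.

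**Figure D2:**
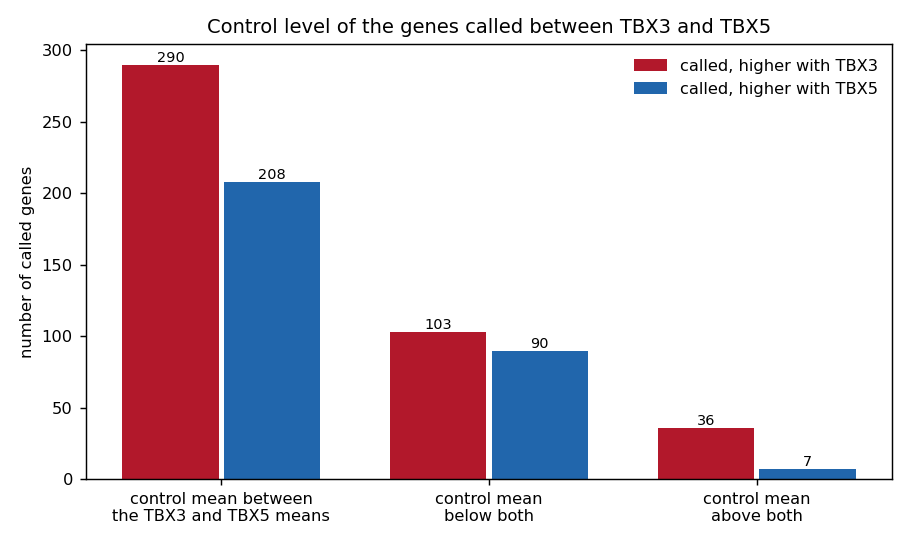
Number of called genes (y axis) by where the mean of the 6 control libraries lay relative to the TBX3 and TBX5 means (x axis), for genes higher with TBX3 (red) and higher with TBX5 (blue). The control level lay between the plasmids for 290 and 208 genes, and above both for 36 and 7.

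Heat shock genes encode the chaperones that refold damaged proteins under the control of HSF1. Among called genes at a mean of at least 5 CPM they held the largest differences, TBX3 itself aside. NPTX1 and NOG differed by more, at -3.85 and -3.04 on the log2 scale, at a lower mean level. HSPA1A and HSPA1B encode the same inducible HSP70 protein from neighbouring genes and are nearly identical in sequence, so their reads can be shared between them, and 36.6% of the annotated exon length of HSPA1B overlaps other genes. Their promoters are shown because, TBX3 itself aside, the pair carried the largest difference at a level above 5 CPM. The sequences, from RefSeq on GRCh38.p14 (chr6:31815293-31815592 and chr6:31827488-31827787, plus strand), run from 250 bases before to 50 bases after the start, and capitals mark a heat shock element searched as GAANNTTC, which reads the same on both strands.
HSPA1A: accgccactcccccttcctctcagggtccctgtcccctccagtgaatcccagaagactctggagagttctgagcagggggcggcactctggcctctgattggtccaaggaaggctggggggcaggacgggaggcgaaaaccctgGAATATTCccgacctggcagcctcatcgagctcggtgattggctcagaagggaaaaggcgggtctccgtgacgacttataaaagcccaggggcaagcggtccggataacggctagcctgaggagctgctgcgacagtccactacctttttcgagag
HSPA1B: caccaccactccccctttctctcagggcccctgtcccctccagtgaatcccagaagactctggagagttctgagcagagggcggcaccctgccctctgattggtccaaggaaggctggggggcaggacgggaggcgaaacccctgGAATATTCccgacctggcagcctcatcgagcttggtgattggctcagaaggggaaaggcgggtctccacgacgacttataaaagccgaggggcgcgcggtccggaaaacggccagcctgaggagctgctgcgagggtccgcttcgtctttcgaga

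The element begins 106 bases before the start of HSPA1A and 105 before that of HSPA1B. These letters stand in 4.62% of the 10735 promoters found for tested genes, in 4.62% of the 346 found for genes higher with TBX3 and in 3.70% of the 216 found for genes higher with TBX5. Among the 17 tested members of the heat shock list 6 held them (35.3%), namely HSPA1A, HSPA1B, CHORDC1 and HSPB1, which were called, and HSPA8 and DNAJA1, which were not. The match is a description of letters and not a measurement of binding.

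HSPA1A stood at 136, 204 and 177 CPM in TBX3 libraries a, b and c and at 23.8, 25.9 and 29.1 CPM in TBX5 libraries a, b and c, against 19.5 to 25.8 CPM in the 6 controls. All TBX3 values lay far above the others, and the TBX5 values overlapped the control range. The log2 fold change was 2.72 ± 0.12 (SE; edgeR, adjusted p = 4.32e-12). HSPA1B stood at 122, 170 and 151 CPM with TBX3 and 20.9, 21.2 and 25.6 CPM with TBX5, also 2.72 ± 0.12 (edgeR, adjusted p = 1.49e-12). DNAJB1, the HSP40 cochaperone that hands substrates to HSP70, stood at 173, 223 and 208 CPM with TBX3 against 67.7, 65.5 and 68.9 CPM with TBX5 and 65.5 to 68.3 CPM in the controls, a log2 fold change of 1.58 ± 0.09 (edgeR, adjusted p = 2.02e-10).

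Of the 17 tested heat shock members 7 were higher with TBX3 (2.75% of all genes were) and none with TBX5 (1.96%). The median log2 fold change of the list was 0.21 against 0.00 over all genes. HSPH1, a nucleotide exchange factor for HSP70, stood at 183 ± 6.22 and 134 ± 1.39 CPM (SD, n = 3 each), a log2 fold change of 0.45 ± 0.07 (SE; edgeR, adjusted p = 0.000709), and the cochaperones BAG3 and CHORDC1 gave 0.47 and 0.45. In all 7 called members the 3 TBX3 libraries lay above all 6 controls. The constitutive chaperones HSPA8 and HSP90AB1 were at 2121 and 1828 CPM and at 1314 and 1218 CPM with TBX3 and TBX5, and neither passed the test. HSPB1, at 0.38, lost its call without TBX3 library b (edgeR, adjusted p = 0.359). ZFAND2A, an arsenite-inducible regulator of the proteasome outside the list, stood at 12.8, 14.9 and 14.6 CPM with TBX3 and 6.41, 6.53 and 4.83 CPM with TBX5, 1.24 on the log2 scale.

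The integrated stress response, in which phosphorylated eIF2alpha raises translation of ATF4 and ATF4 then switches on amino acid and apoptosis genes, showed the highest list median. CHAC1, a glutathione-degrading enzyme induced by ATF4, is shown for its promoter (RefSeq, GRCh38.p14, chr15:40953221-40953520, plus strand), with capitals marking TGATGCAA on the minus strand, a combined C/EBP and ATF site.
CHAC1: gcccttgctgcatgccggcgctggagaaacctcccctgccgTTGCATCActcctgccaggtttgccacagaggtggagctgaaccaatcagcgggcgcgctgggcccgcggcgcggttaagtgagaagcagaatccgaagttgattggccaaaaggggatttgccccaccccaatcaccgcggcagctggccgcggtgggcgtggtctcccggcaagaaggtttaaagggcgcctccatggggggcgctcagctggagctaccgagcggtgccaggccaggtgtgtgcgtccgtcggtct

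These letters, searched on both strands, stand in 0.494% of tested promoters, in 4 of the 346 promoters of genes higher with TBX3 (1.16%), in none of the 216 of genes higher with TBX5, and in 1 of 14 promoters of the list. CHAC1 stood at 6.93, 10.5 and 9.03 CPM with TBX3 and 2.10, 0.99 and 1.30 CPM with TBX5, against 1.48 to 3.00 CPM in the controls. The TBX3 values stood apart from all others, and the TBX5 range reached from below the controls into them. The log2 fold change was 2.47 ± 0.26 (SE; edgeR, adjusted p = 9.16e-06).

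Of the 15 tested members 7 were higher with TBX3 (2.75% of all genes were) and none with TBX5 (1.96%), with a median log2 fold change of 0.37. DDIT3, the transcription factor CHOP, stood at 24.0, 32.2 and 31.2 CPM with TBX3 and 12.1, 16.0 and 16.0 CPM with TBX5, against 11.7 to 13.3 CPM with EV and 6.26 to 6.73 CPM in Ctl, and 39.6% of its exon length overlaps other genes. Its log2 fold change was 1.03 ± 0.13 (SE; edgeR, adjusted p = 0.000135). SESN2, a stress-induced brake on mTORC1, and TRIB3, a pseudokinase that restrains AKT and ATF4, gave 1.03 and 1.02. SESN2 averaged 12.2 CPM with TBX5 and 10.0 CPM with EV, and TRIB3 averaged 8.18 CPM with TBX5 and 11.4 CPM with EV, beside 24.9 and 16.4 CPM with TBX3. SLC7A11, the cystine transporter, gave 0.65.

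ATF4 itself stood at 162 CPM with TBX3 and 126 CPM with TBX5, 0.37 on the log2 scale, but lost its call without TBX3 library b (edgeR, adjusted p = 0.179), and DDIT4 lost it without TBX5 library a (edgeR, adjusted p = 0.276). PPP1R15A (GADD34), which directs the phosphatase that ends the response, stood at 40.8, 56.4 and 34.4 CPM with TBX3 and 13.6, 26.9 and 24.5 CPM with TBX5, 1.05 ± 0.19 on the log2 scale (edgeR, adjusted p = 0.00216). The unfolded protein response, the branch that senses misfolding in the endoplasmic reticulum (ER), had calls in both directions. Of its 15 tested members 1 was higher with TBX3 (2.75% of all genes were) and 3 were higher with TBX5 (1.96%). The list median was -0.13 on the log2 scale, with 13 members below 0 and 2 above, called or not. HERPUD1, an ER degradation factor that ATF4 also drives, was higher with TBX3 at 0.75 ± 0.12 (edgeR, adjusted p = 0.000864). The ER chaperones HSP90B1, PDIA4 and CRELD2 were higher with TBX5, at -0.35, -0.40 and -0.57, of which CRELD2 lost its call without TBX5 library b (edgeR, adjusted p = 0.253). HSPA5 (BiP), the main ER chaperone, stood at 165 and 172 CPM and did not pass.

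Immediate-early genes encode the first transcription factors and phosphatases made after a growth or stress signal. Of the 30 tested members 11 were higher with TBX3 (2.75% of all genes were) and 1 was higher with TBX5 (1.96%). EGR1, a zinc finger transcription factor, stood at 39.3, 55.1 and 38.4 CPM with TBX3, at 14.8, 24.0 and 21.7 CPM with TBX5, at 6.49 to 12.6 CPM with EV and at 5.13 to 6.33 CPM in Ctl. The 4 groups followed each other without overlap, and both plasmids were above the controls, by 2.51 for TBX3 and 1.35 for TBX5 on the log2 scale (edgeR, adjusted p = 1.55e-10 and 0.000254). Between the plasmids EGR1 differed by 1.16 ± 0.15 (SE; edgeR, adjusted p = 0.000135).

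ATF3, a stress-induced bZIP factor, stood at 9.54, 14.8 and 11.8 CPM with TBX3 and 4.42, 4.95 and 3.90 CPM with TBX5, beside 4.26 to 4.92 CPM with EV, so that TBX5 and EV overlapped, at 1.43 ± 0.19 (SE; edgeR, adjusted p = 0.000144). JUN, the AP-1 subunit, stood at 35.6, 45.6 and 35.8 CPM against 21.4, 18.8 and 19.9 CPM, a log2 fold change of 0.93, and JUNB and JUND gave 0.68 and 0.69. JUND differed in its origin, since it was not called against the controls with TBX3 (-0.08) and was lower than in the controls with TBX5 by 0.77 on the log2 scale (edgeR, adjusted p = 7.82e-05). The phosphatases DUSP1 and DUSP5, which switch MAP kinases off, gave 1.00 and 0.55, and MYC gave 0.33. FOSL2 lost its call without TBX5 library b (edgeR, adjusted p = 0.149). KLF2, a Krüppel-like factor, went the other way, at 4.31, 5.72 and 3.64 CPM with TBX3 and 9.07, 7.13 and 12.6 CPM with TBX5, -1.13 ± 0.21 (edgeR, adjusted p = 0.00382).

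**Figure D3:**
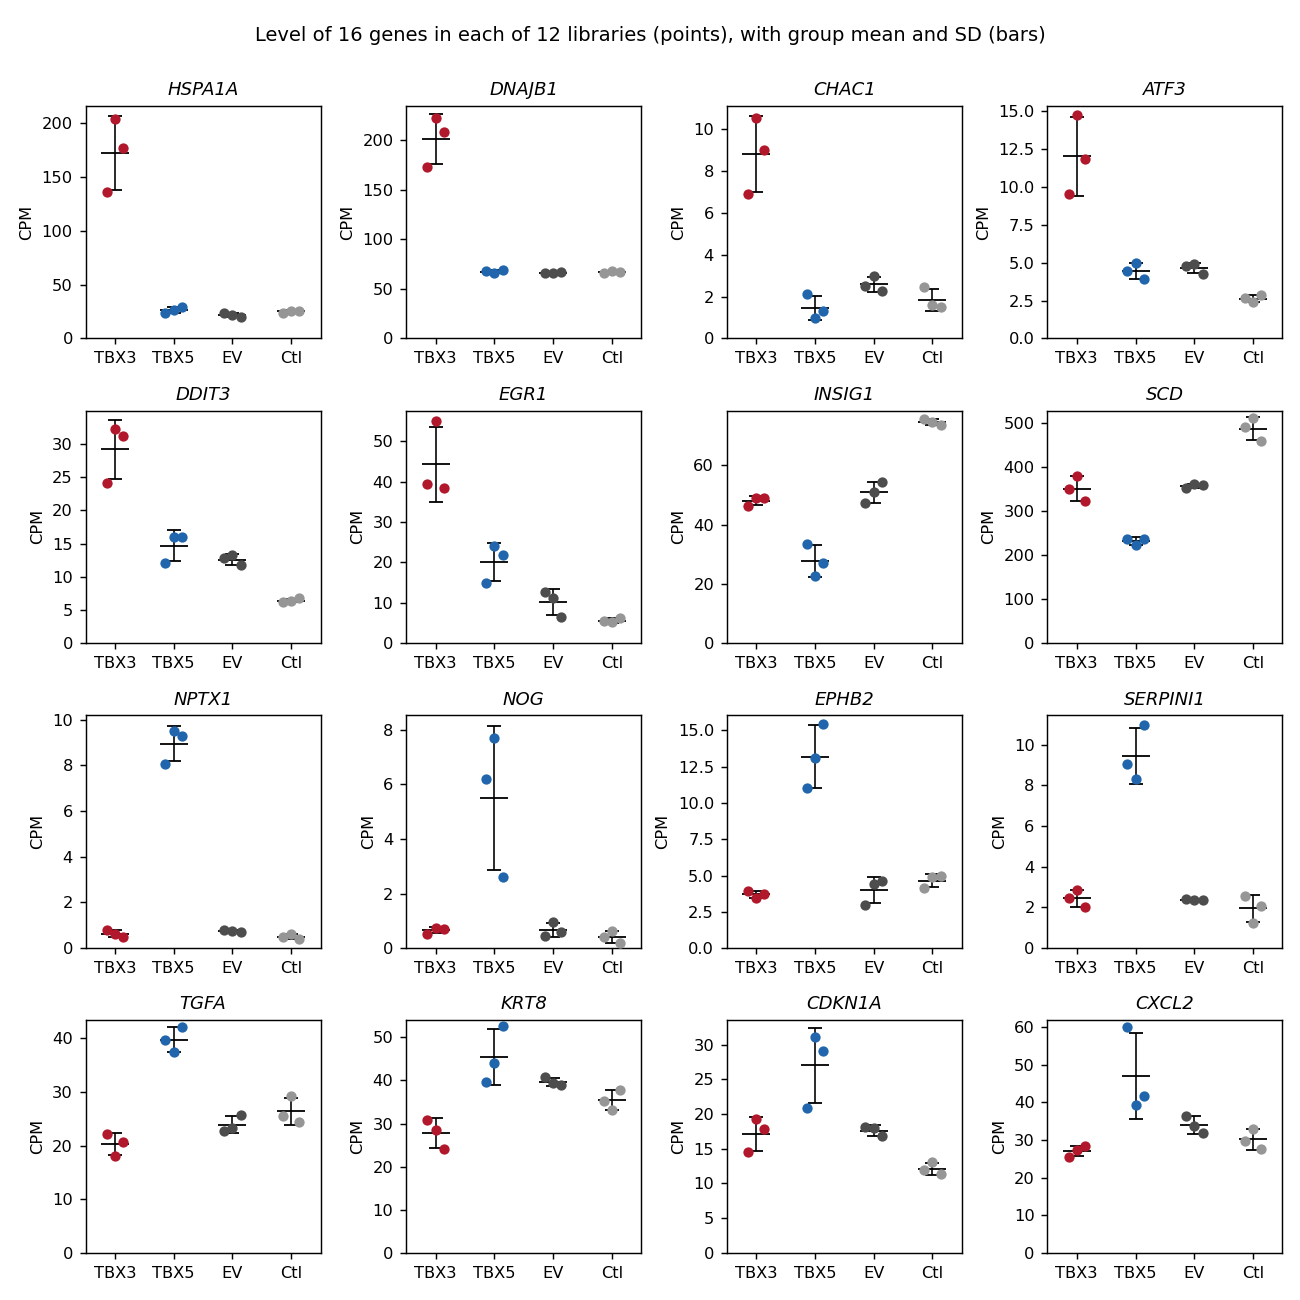
Level of 16 genes (y axis, CPM after TMM scaling) in each of the 3 TBX3, 3 TBX5, 3 EV and 3 Ctl libraries (x axis), with the group mean and SD as bars. The TBX3 points of HSPA1A, DNAJB1, CHAC1 and ATF3 stand above the other 9 libraries, the TBX5 points of NPTX1, EPHB2, SERPINI1 and TGFA stand above them in turn, and for INSIG1 and SCD the TBX5 points lie lowest.

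Sterol and fatty acid synthesis genes, targets of the SREBP transcription factors, were higher with TBX3 for 10 of 30 tested members (2.75% of all genes were). None was higher with TBX5 (1.96% of all genes were), and the list's median log2 fold change was 0.24. The controls placed most of this difference on the TBX5 side. In all 10 called members the 3 TBX5 libraries lay below all 6 controls, while the TBX3 range met the EV range in 6 of them and lay below all controls in 3. Against the controls 20 of the 30 had fallen with TBX5 and 11 with TBX3, and none had risen with either. The control groups themselves were apart, with Ctl above EV at several of these genes.

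INSIG1, which holds SREBP in the ER when sterols are high, stood at 46.3, 48.9 and 49.2 CPM with TBX3 and 33.6, 22.8 and 27.1 CPM with TBX5, beside 47.3 to 54.4 CPM with EV and 73.5 to 75.8 CPM in Ctl. TBX3 and EV overlapped, TBX5 lay below both, and the log2 fold change between plasmids was 0.76 ± 0.11 (SE; edgeR, adjusted p = 0.000295). SCD, the desaturase that makes oleate, stood at 349, 379 and 324 CPM with TBX3 and 237, 222 and 237 CPM with TBX5, with 352 to 361 CPM in EV and 459 to 511 CPM in Ctl, a log2 fold change of 0.60 ± 0.08 (edgeR, adjusted p = 0.000143). SREBF1, which encodes SREBP-1, stood at 75.9, 77.2 and 69.4 CPM with TBX3 and 49.4, 45.5 and 48.6 CPM with TBX5, 0.62 on the log2 scale.

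HMGCS1, the cytosolic enzyme that makes HMG-CoA, gave 0.65, with 37.7% of its exon length shared with other genes, and SREBF2, which encodes SREBP-2, gave 0.41. IDI1, FASN, LSS and FDFT1 lost their calls when a single TBX5 library was left out, at an adjusted p of 0.112, 0.317 and 0.294 without library c for IDI1, LSS and FDFT1 and of 0.259 without library b for FASN (edgeR).

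**Figure D4:**
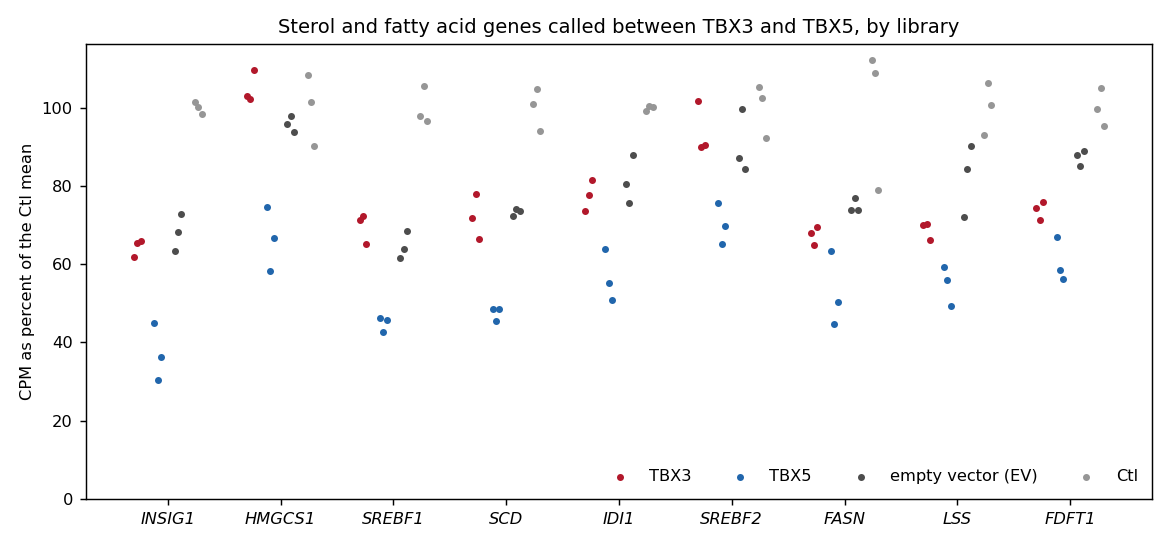
Level of 9 of the 10 called sterol and fatty acid genes in each library as a percentage of the Ctl mean (y axis), for TBX3 (red), TBX5 (blue), EV (dark grey) and Ctl (light grey). In every gene the 3 TBX5 points lie below the TBX3, EV and Ctl points.

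Single genes higher with TBX3 included DACT1, BCOR, NUAK1 and SKIL. DACT1, an inhibitor of Wnt signalling, stood at 9.28, 11.4 and 13.2 CPM with TBX3 and 4.98, 4.55 and 4.64 CPM with TBX5, with the controls at 4.92 to 7.52 CPM below TBX3 and reaching the upper TBX5 value, 1.27 on the log2 scale. BCOR, a corepressor of a variant Polycomb complex, stood at 74.1, 78.3 and 64.5 CPM with TBX3 and 42.5, 44.3 and 48.1 CPM with TBX5, and the TBX5 values fell among the controls at 42.4 to 50.0 CPM, 0.68 on the log2 scale. NUAK1, an AMPK-related kinase, stood at 24.8, 23.8 and 24.4 CPM with TBX3 and 14.7, 14.3 and 13.0 CPM with TBX5, with the controls at 16.8 to 19.8 CPM in between, 0.79 on the log2 scale. SKIL, which encodes the SMAD corepressor SnoN, gave 0.46. All 4 had TBX3 libraries above every TBX5 library.

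Of 20 tested histone demethylases 2 were higher with TBX3 and none with TBX5, with a list median of 0.01. That was 10% called, against 4.71% of all genes, a count too small to read against the background. KDM6A (UTX), which removes a repressive methyl mark from histone H3, stood at 26.0, 30.3 and 30.5 CPM with TBX3 and 20.8, 19.0 and 20.4 CPM with TBX5, 0.53 ± 0.10 (SE; edgeR, adjusted p = 0.00568). JMJD6 gave 0.50, and in both genes the TBX3 libraries lay above all 6 controls. KDM6B, the paralog of KDM6A, stood at 15.4 and 18.5 CPM with TBX3 and TBX5 and did not pass between them, with EV at 7.50 and Ctl at 6.84 CPM.

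NPTX1, NOG and KCNA7 had the lowest log2 fold changes, on the TBX5 side, among the genes described here. NPTX1, a secreted neuronal pentraxin, stood at 0.784, 0.602 and 0.490 CPM with TBX3 and 8.07, 9.50 and 9.28 CPM with TBX5, against 0.396 to 0.798 CPM in the controls. TBX3 and controls overlapped fully, and the log2 fold change was -3.85 ± 0.27 (SE; edgeR, adjusted p = 1.06e-08). NOG, the secreted BMP antagonist noggin, stood at 0.523, 0.753 and 0.700 CPM with TBX3 and 6.19, 7.72 and 2.60 CPM with TBX5, -3.04 ± 0.38 (edgeR, adjusted p = 9.97e-05), and TBX5 library c was the lowest of its group.

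KCNA7, a voltage-gated potassium channel, stood at 0.784, 0.301 and 0.630 CPM with TBX3 and 3.76, 3.56 and 3.90 CPM with TBX5, -2.63 on the log2 scale. EPHB2, an ephrin receptor tyrosine kinase, stood at 3.92, 3.46 and 3.71 CPM with TBX3 and 11.1, 13.1 and 15.4 CPM with TBX5, against 2.96 to 4.95 CPM in the controls, -1.80 on the log2 scale. VWA5A gave -1.90, at 2.15 to 3.19 CPM in the controls and 8.84, 7.52 and 7.98 CPM with TBX5. For these genes the TBX3 values stayed within or near the range of the controls.

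SERPINI1, the serine protease inhibitor neuroserpin, and CDKN1A, the CDK inhibitor p21, are shown for their promoters as 2 of the 3 genes higher with TBX5 that hold the T-box letters AGGTGTGA, the other being the ER chaperone gene HSP90B1 (RefSeq, GRCh38.p14, chr3:167735471-167735770 and chr6:36678464-36678763, plus strand, capitals mark the match).
SERPINI1: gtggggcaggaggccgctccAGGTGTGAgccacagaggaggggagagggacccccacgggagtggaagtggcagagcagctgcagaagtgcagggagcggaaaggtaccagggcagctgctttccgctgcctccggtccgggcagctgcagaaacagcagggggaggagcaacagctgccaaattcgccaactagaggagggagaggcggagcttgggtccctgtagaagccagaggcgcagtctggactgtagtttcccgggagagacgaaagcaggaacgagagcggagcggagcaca
CDKN1A: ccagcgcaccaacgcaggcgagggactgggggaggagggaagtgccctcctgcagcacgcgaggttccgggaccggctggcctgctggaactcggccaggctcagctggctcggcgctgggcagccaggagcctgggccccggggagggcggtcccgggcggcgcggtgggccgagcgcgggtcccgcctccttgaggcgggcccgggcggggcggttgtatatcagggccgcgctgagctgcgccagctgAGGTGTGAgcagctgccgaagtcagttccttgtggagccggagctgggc

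The match begins 230 bases before the start in SERPINI1 and 1 base after the start in CDKN1A. Searched on both strands, these letters stand in 0.727% of tested promoters, in 3 of 346 promoters of genes higher with TBX3 (0.867%) and in 3 of 216 of genes higher with TBX5 (1.39%), a description of few matches. SERPINI1 stood at 2.48, 2.86 and 2.03 CPM with TBX3 and 9.07, 8.31 and 11.0 CPM with TBX5, -1.99 on the log2 scale, with the controls at 1.24 to 2.54 CPM. CDKN1A stood at 14.5, 19.3 and 17.8 CPM with TBX3 and 20.9, 31.1 and 29.1 CPM with TBX5, against 16.8 to 18.1 CPM with EV and 11.4 to 13.1 CPM in Ctl. TBX3 overlapped EV, TBX5 lay above all controls, and the difference of -0.62 ± 0.14 (SE; edgeR, adjusted p = 0.0146) was lost without TBX3 library a (edgeR, adjusted p = 0.105).

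TGFA, a ligand of the EGF receptor, stood at 22.1, 18.1 and 20.6 CPM with TBX3 and 39.7, 37.4 and 42.1 CPM with TBX5, against 22.7 to 29.3 CPM in the controls, so that the plasmids lay on either side of them, -0.97 on the log2 scale. The lysosomal cathepsins CTSB and CTSV gave -0.65 and -1.02, the peroxisomal transporter gene ABCD2 -0.99 and the GTPase activator gene ARHGAP26 -1.06. CTSB stood at 62.0, 55.2 and 56.8 CPM with TBX3, 90.2, 86.5 and 96.5 CPM with TBX5 and 50.6 to 59.6 CPM in the controls. LUCAT1, a stress-linked lncRNA, gave -1.08, and there both plasmids lay above the controls. YPEL2 and DHRS2 gave -1.22 and -1.01. ANKRD20A5P, at -1.27, shares 68.5% of its exon length with other genes and has near copies, so its counts are uncertain.

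Of 4 tested genes described as TBX2 or TBX3 targets, CDKN1A alone was called (25%, against 4.71% of all genes), and CDKN2A, the p16 and p14ARF locus, stood at 27.8, 27.5 and 24.0 CPM with TBX3 and 20.9, 21.8 and 24.0 CPM with TBX5, 0.25 ± 0.11 (SE; edgeR, adjusted p = 0.248). Of 6 tested genes described as TBX5 targets, ID2 alone was called (16.7%), at 5.81 ± 1.07 and 8.71 ± 0.356 CPM (SD, n = 3 each), and its difference of -0.57 was lost without TBX3 library a (edgeR, adjusted p = 0.277). The cardiac targets NPPA, NPPB, GJA5 and TNNT2 did not pass the count filter. Among 12 tested T-box partners 2 were called (16.7%), counts too small to read against the background. MEF2C and HDAC5 were higher with TBX3, at 0.45 and 0.53, and both calls were lost when a single library was left out (edgeR, adjusted p = 0.128 without TBX3 library b and 0.356 without TBX5 library a). Of the 9 tested T-box genes TBX3 alone was called, and TBX2 stood at 3.85 and 3.49 CPM.

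Few cell cycle genes were called. None of 42 S phase genes was called, and 1 of 54 G2 and M phase genes was, RANGAP1 at 0.36, lost without TBX3 library b (edgeR, adjusted p = 0.116). The medians of these lists were 0.02 and 0.08 on the log2 scale. Of 9 tested CDK inhibitors and RB family genes CDKN1A alone was called. No member of the BCL2 family (15 tested), the interferon-stimulated genes (30 tested) or the mitochondrial genome (13 tested) was called. Of 75 cytoplasmic ribosomal protein genes 1 was, RPS27 at -0.26, lost without TBX3 library a (edgeR, adjusted p = 0.33). In the S phase, G2 and M phase, BCL2, interferon, mitochondrial and ribosomal lists the share called was thus below the 4.71% of all genes. At that share lists of this size would hold few calls, so the low counts are not read as a result about these lists.

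**Figure D5:**
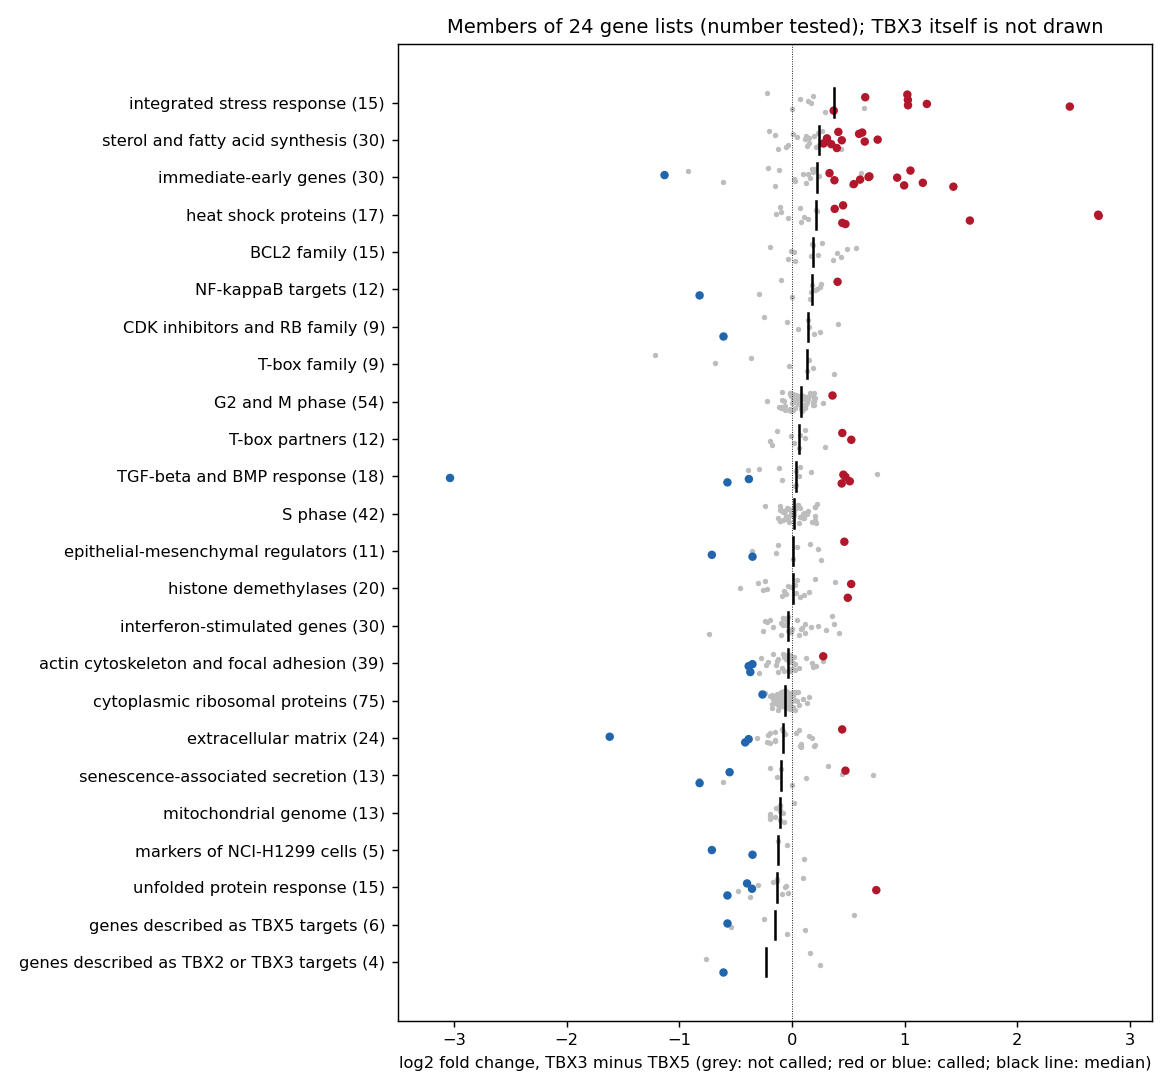
Log2 fold change (x axis, TBX3 minus TBX5) of each tested member of 24 gene lists (y axis), with called members in red or blue, others in grey and the list median as a black line. Called members of the integrated stress response, sterol and heat shock lists all lie to the right of 0, those of the immediate-early list do so in 11 of 12 cases, and the S phase list has none.

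CXCL2, a chemokine and NF-kappaB target, stood at 25.5, 27.4 and 28.3 CPM with TBX3 and 60.0, 39.2 and 41.8 CPM with TBX5, -0.82 ± 0.12 (SE; edgeR, adjusted p = 0.000547). PLAU, the urokinase gene, stood at 66.1, 62.5 and 69.8 CPM with TBX3 and 103, 90.5 and 97.7 CPM with TBX5, where the TBX5 values lay in the control range of 80.4 to 105 CPM and TBX3 lay below it, -0.55 on the log2 scale. TNFAIP3, the NF-kappaB feedback inhibitor A20, was higher with TBX3 by 0.40 and lost that call without TBX5 library c (edgeR, adjusted p = 0.242).

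In the TGF-beta and BMP list of 18 tested genes 4 were higher with TBX3 (ID1, ID3 and SKIL among them) and 3 higher with TBX5 (NOG, ID2 and LTBP2). Over all genes the shares were 2.75% and 1.96%. ID1 and ID3 stood at 22.5 and 16.1 CPM and at 16.2 and 11.2 CPM with TBX3 and TBX5. These were log2 fold changes of 0.44 and 0.51, and both were lost without TBX3 library a (edgeR, adjusted p = 0.376 and 0.191). LTBP2 was lost without TBX5 library c (edgeR, adjusted p = 0.173).

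Among keratin, adhesion and matrix genes more calls were higher with TBX5 than with TBX3, but they were few and most were lost without a single library. The share called was 10.3% in the actin and adhesion list and 16.7% in the matrix list, against 4.71% of all genes. The medians of these lists were -0.04 and -0.08 on the log2 scale. KRT8, the simple epithelial keratin, stood at 30.8, 28.6 and 24.1 CPM with TBX3 and 39.6, 44.1 and 52.5 CPM with TBX5, against 33.2 to 40.8 CPM in the controls, -0.71 ± 0.11 (SE; edgeR, adjusted p = 0.000709). Its partner KRT18 gave -0.35 and was lost without TBX5 library c (edgeR, adjusted p = 0.143), and for both keratins the TBX3 libraries lay below all 6 controls. Of 39 tested actin and adhesion genes 3 were higher with TBX5 (ITGA6, ACTB and ITGA2, at -0.35, -0.37 and -0.38) and 1 higher with TBX3 (TPM1, at 0.28). ITGA6, the laminin receptor subunit, kept its call in all 6 fits without a library, while ACTB, ITGA2 and TPM1 lost theirs (edgeR, adjusted p of up to 0.109, 0.365 and 0.214).

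Of 24 tested matrix genes FN1, COL6A1 and LAMA4 were higher with TBX5, at -0.39, -0.42 and -1.62, and THBS1 was higher with TBX3, at 0.45. All 4 were lost when a single library was left out (edgeR, adjusted p of up to 0.118, 0.241, 0.236 and 0.214). ZEB2, an E-box repressor linked to the mesenchymal state, was higher with TBX3 at 0.46 ± 0.10 (SE; edgeR, adjusted p = 0.0123). VIM, the mesenchymal intermediate filament, stood at 760 and 829 CPM with TBX3 and TBX5 and did not pass (edgeR, adjusted p = 0.491).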

How the data were processed

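Total RNA of transfected NCI-H1299 cells was sequenced in pairs of reads. Per the labels and the study's methods, the authors aligned the reads to GRCh37 (GRCh37.75) with STAR 2.3.0 and counted them per gene with featureCounts 1.5.4 at default settings, which do not use strand, and deposited raw counts for 18 libraries. The 4c library, whose title names both a TBX4 replicate and TBX5, was put in no group and entered only the filter and the scaling. Genes had to exceed 5 counts in 10 or more libraries (15576 of 63677 did). TMM factors were computed once over 18 libraries, and each comparison was fitted alone in edgeR 4.0.16 (R 4.3.3) by the quasi-likelihood test, called at a Benjamini-Hochberg adjusted p under 0.1; the study's own tool, DESeq2 (here 1.42.0), was an alternative. Log2 fold changes are TBX3 minus TBX5 and SE is the log2 fold change over the root of F. With 3 libraries against 3 an exact permutation test could not go below 0.1 and was not used. Totals of 7365221 to 11743179 counts set a floor of 0.191 to 0.594 CPM (3 counts), and floors cover counting error only. Symbols and positions came from a GENCODE annotation lifted to GRCh37, promoters from RefSeq (GRCh38.p14) by symbol. The fitting steps were tested on simulated data.

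The genes named were, in each direction, the 12 called genes of largest fold change at a mean of at least 5 CPM without overlap, the 5 next by p, the TBX2 subfamily and its neighbours within 1 Mb, and up to 4 members of each of 26 lists by p; further called list members and a few uncalled ones are named as examples, chosen after their values were seen. A few named genes are not reported here. The comparison, the members and the lists were chosen with earlier results of these data known. Replicates of a group differed by more than sampling noise (chi-square per degree of freedom of at least 1.59, the value of EV a against b). The value was 14.4 and 19.0 for TBX3 c against a and b, and 3.37 between a and b. For TBX5 a against b and c it was 8.83 and 13.5, and 2.25 between b and c. TBX3 c and TBX5 a also had the lowest ENSG00000266658 share of their groups, at 10.7% and 22.5%.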

Additional observations from a re-analysis of the deposited data

Results flagged for a closer look

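Among 134 genes checked over the 6 pooled control libraries, 10 had a library far from the others by Dixon's test, which chance does in about 1 of 20 groups. The highest values were TBX4 at 0.0989 CPM in Ctl c (1 count, against 0 in the others) and SDSL at 1.5 CPM in EV b. The lowest were SERPINI1 at 1.24 CPM and ITGA2 at 14.9 CPM in Ctl b, FOSL2 at 23.5 CPM in EV a and CHORDC1 at 37.7 CPM in EV c. In EV c 4 mitochondrial genes were also lowest, namely MT-CO3 at 1168 CPM, MT-CO1 at 1451 CPM, MT-CYB at 376 CPM and MT-CO2 at 744 CPM, against a next lowest control of 1392, 1770, 526 and 993 CPM. The check covered control libraries only, so no TBX3 or TBX5 value could be flagged. Among the TBX3 libraries, c was likewise lowest at MT-CYB, with 333 CPM against 713 and 706 CPM in a and b. At MT-CO2 it had 626 CPM against 1154 and 1155 CPM, and at MT-CO1 1307 CPM against 1908 and 1938 CPM. The library titled 4c, used in no comparison, held 85197 TBX4 counts, against at most 1 in a control, and 1 TBX5 count.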

How the results depend on the processing

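Against 429 and 305 genes called higher with TBX3 and with TBX5, DESeq2 called 226 and 148, an adjusted p under 0.05 left 282 and 179, and a log2 difference of 1 or more left 23 and 71. A single fit of all 17 grouped libraries called 661 and 473, and 851 and 615 with the top gene's share of counts as a term; that share as a covariate in the fit of 6 libraries, chosen after seeing the data, called 907 and 614. Scaling by library totals, which raised the median of all genes to 0.23, left 5 and 3 calls, and lists with a median below 0 turned positive, while totals without the most counted gene gave 425 and 307. Leaving out each library gave 225 (without TBX3 b) to 532 (without TBX5 a) and 154 (without TBX3 a) to 419 (without TBX5 a). Against the controls TBX3 called 1453 genes in DESeq2, 35 with library totals (all higher, against 1320 of 2317), 87 at a log2 difference of 1 or more and 1543 to 2262 without a library; TBX5 called 93 with library totals (38 higher, against 1049 of 1977), 1190 against Ctl alone, 1225 at an adjusted p under 0.05, 177 at a log2 difference of 1 or more and 1067 to 1834 without a library. Of the 85 genes shown and called, 58 kept their call without any 1 library and 27 lost it in at least 1 of 6 fits; 77 lost it with library totals and 16 in DESeq2, and none of them reversed. The letters a to c did not pair the libraries, with correlations of same-letter deviations of -0.01, 0.08 and -0.10, and the replicate block called 407 and 291 genes, 654 of them among the 734. With 3 libraries a side, small differences of genes at a few CPM were not detectable at this depth.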
